A study of Mus musculus with 1002 samples.

Results

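The wells described here are Tectb-negative supporting cells of the postnatal mouse utricle. They made up 18.4% of the 861 single-cell wells that the labels mark as passed, out of 1002 wells in all: 14, 22, 19, 30, 12 and 61 wells of the 6 label groups described below. The members were chosen by the expression of 12 genes: a well was a member if at most 1 of 6 hair cell genes (Pou4f3, Myo15, Otof, Ptprq, Espn and Cib2) and at least 3 of 5 supporting cell genes (Sparcl1, Igfbp3, Dkk3, Gjb6 and Slc1a3) reached 10 CPM (the counts-per-million scale), and Tectb did not. CPM is a gene's count scaled by the well's total over all genes. The other passed wells fell into 42 Tectb-positive supporting cells chosen in the same way, other non-hair wells with fewer of the 5 genes (34.1% of passed wells) and hair wells (42.6%). Since these genes made the choice, their values are given as a description, without a test.

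The utricle is a balance organ of the inner ear. Its sensory epithelium holds hair cells, which sense head movement, and supporting cells, which surround them. Supporting cells secrete part of the gelatinous membrane that carries the otoconia, take up ions and glutamate, and receive Notch signals from hair cells. A curved central band, the striola, differs from the extrastriolar epithelium around it, and Tectb, which encodes beta-tectorin, is known as a gene of striolar supporting cells.

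Single cells had been sorted by FACS, and their libraries were made with Smart-seq2, which reads whole transcripts and uses no molecular identifiers. All animals are labelled as a mix of C57BL/6 and FVB, and the labels form 6 groups by age and genotype. Atoh1-EGFP is a green reporter of the hair cell factor Atoh1, and Pou4f3-DTR places the diphtheria toxin receptor under Pou4f3, another hair cell factor. The members were 14 wells of P2 (postnatal day 2) mice labelled with both alleles, 22 of P4 Atoh1-EGFP, 19 of P4 Pou4f3-DTR, 30 of P4 wildtype, 12 of P6 Pou4f3-DTR and 61 of P6 wildtype mice. The labels give no toxin treatment, sorting gate or animal, so whether a wildtype or DTR mouse received toxin cannot be read from them, and each label group counted as 1 sample. P-values therefore measure how the difference between classes within a label group varied from group to group, which may be partly technical. Sequencing pool 3 held the P2 and both transgenic P4 groups and pool 7 held P4 wildtype. The wildtype wells of P6 were spread over pools 1, 4, 5 and 6 and the Pou4f3-DTR wells of that age over 1 and 2. Reverse transcription used the maxima enzyme in 110 member wells and smartscribe in 48, which were all of the transgenic P4 wells and 7 at P2, where the labels also give 5 well volumes. The members held 108012 to 1113366 reads per well (median 451816) and 1128 to 5671 detected genes (median 3122.5).

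Not all members fitted the name of supporting cell. In all, 10 members carried at least 3 of 10 mesenchyme markers at 10 CPM, and 9 of these were among the 14 P2 members. In those 9 wells Otor ranged from 16760 to 80052 CPM (median 26668) and Coch from 3345 to 17718 CPM (median 5931). Both encode secreted proteins known from the fibrocytes of the inner ear. Otog, which encodes otogelin of the otolithic membrane and was given as a marker of these cells, had 0 reads in all 9, as did Otoa, Otogl, Tecta, Sox2, Agr3, Ush1c and Epcam, the last an adhesion molecule of epithelia. The tenth well, of P6 wildtype, had the same pattern, with Otor at 11512 CPM, Coch at 8571 CPM and no Otog read. Of the rule genes, Sparcl1 and Slc1a3 were at 10 CPM in all 10 wells, Gjb6 in 8, Dkk3 in 6 and Igfbp3 in 4. The remaining 5 P2 members had no Otor or Coch read, Otog between 509 and 4899 CPM and Epcam between 1512 and 3228 CPM. Mesenchyme-marked wells were 17 of all passed wells, with 0 among Tectb-positive supporting cells and 7 among the other non-hair wells. The 10 wells go against the label. The share of members, the P2 sums of Sparcl1, Otog and Jag1, and the calls and list counts of both edgeR comparisons are therefore also given for the other members, called unmarked here, and 1 such well bears on the P6 wildtype sums.

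**Figure D1:**
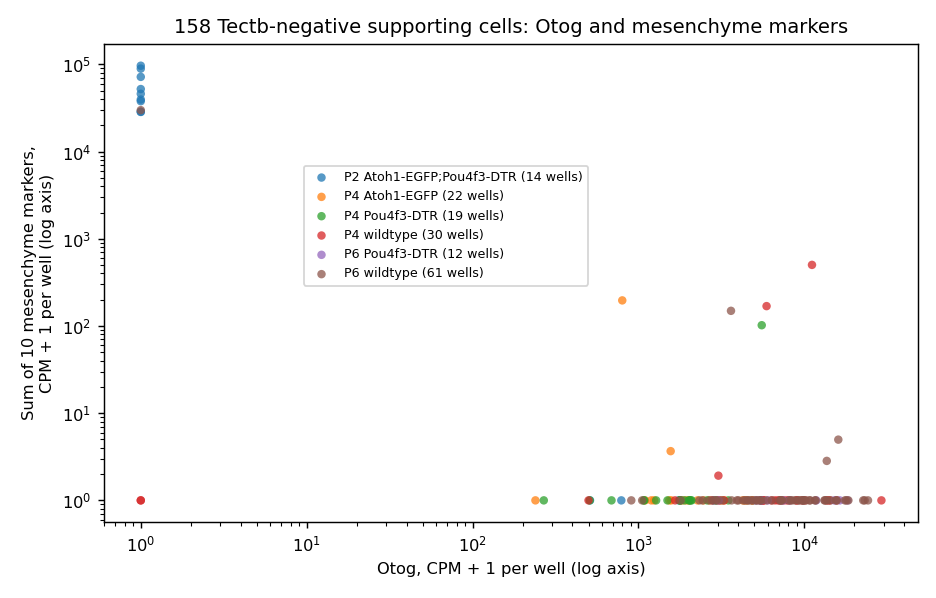
Each point is 1 member well, with Otog (CPM + 1, log axis) across and the sum of the 10 mesenchyme markers (CPM + 1, log axis) upwards, coloured by label group. The 10 mesenchyme-marked wells, 9 of them P2, stand at the upper left without an Otog read, apart from the rest.

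No member carried 3 or more endothelial, pericyte, immune, neuronal or erythroid markers. Of the 6 melanocyte markers, 3 or more were in 1 well of P4 wildtype, with a sum of 45329 CPM. At least 3 of 8 markers of roof and non-sensory epithelium were in 29 members, at least 3 of 4 transitional markers in 14, and at least 3 of 7 glial markers in 15. At least 3 of 21 hair cell markers were in 63 members, but Pvalb, Slc17a8, Tmc2, Cdh23 and Strc were at 0 in every member, and Ush1c and Myo6, which counted among the 21, are described below. The part of these other markers in the results was not tested.

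The members made up 18.4% of passed wells (95% exact binomial interval 15.8 to 21.1), or 17.5% of 844 with mesenchyme-marked wells left out. Among wildtype mice the share was 18.9% at P4 (13.1 to 25.8) and 15.97% at P6 (12.4 to 20.03). Among Pou4f3-DTR mice it was 26.4% at P4 (16.7 to 38.1) and 12.8% at P6 (6.77 to 21.2). P4 Atoh1-EGFP had 28.2% (18.6 to 39.5) and the P2 mice with both alleles 18.4% (10.5 to 28.97), but only 5 of those 76 wells were unmarked members (6.58%, 2.17 to 14.7). The transgenic P4 groups were highest. P6 Pou4f3-DTR was lowest counting all members, and P2 was lowest counting the unmarked ones. The intervals cover counting error only, and sorting gates, which can set such shares, are not in the labels. Within P6 wildtype the 4 pools gave 16.4%, 13.1%, 17.7% and 16.5%. Tectb-positive supporting cells were 0 of 78 wells in P4 Atoh1-EGFP, which allows a share of up to 3.85% by the rule of 3 counts of the total (4.62% as the exact binomial limit used for the other shares), and between 3.19% and 6.54% in the other groups. Among the 200 supporting cells of both kinds, 79% were Tectb-negative (72.7 to 84.4).

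**Figure D2:**
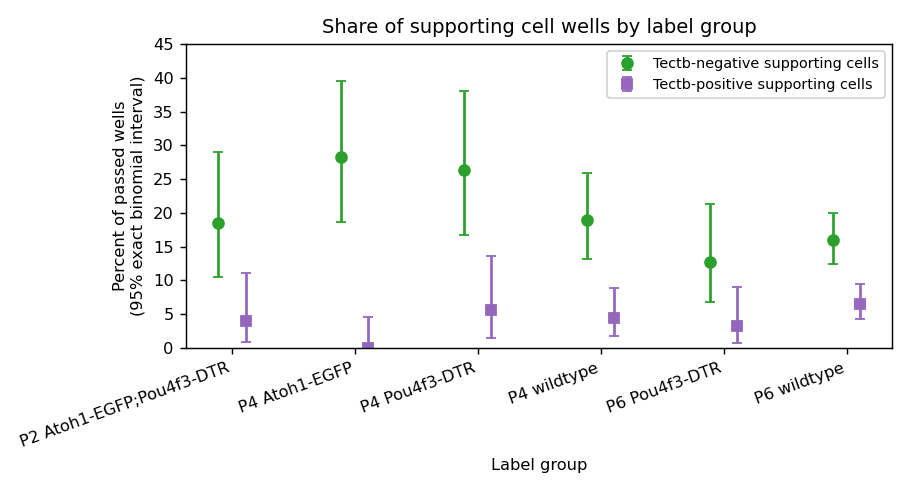
Percent of passed wells (vertical axis, with 95% exact binomial intervals) that were Tectb-negative (circles) or Tectb-positive (squares) supporting cells in each of the 6 label groups. Tectb-negative wells ranged from 12.8% to 28.2% and lay above the Tectb-positive wells in every group.

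The limits of the rule separated Tectb sharply and the supporting cell genes gradually. Only 1 member had any Tectb read, at 5.2 CPM, whereas the lowest Tectb-positive wells had 13.2 and 469 CPM and their median was 14600 CPM. All 5 supporting cell genes were at 10 CPM in 88 members, 4 in 33 and 3 in 37, and 60 other non-hair wells lay just outside with 2. Of the 6 hair cell genes, 1 was at 10 CPM in 30 members and none in the rest, while 7 wells that met the rest of the rule had 2. No member had a read of the Pou4f3DTR entry, and no well of the series had one of exEGFP.

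Of the rule genes, Sparcl1, a secreted matricellular protein, was in 98.1% of members with a median of 2943 CPM, and Slc1a3, a glutamate transporter, in 96.8% with a median of 603 CPM. Dkk3, a secreted member of the Dickkopf family, was in 88.6% (median 745 CPM), Gjb6, which encodes the gap junction protein connexin 30, in 77.8% (median 444 CPM), and Igfbp3, which binds insulin-like growth factors, in 70.9% (median 332.1 CPM). In unmarked members these 5 shares were 97.97% for Sparcl1, 96.6% for Slc1a3, 90.5% for Dkk3, 77.7% for Gjb6 and 72.97% for Igfbp3. The summed level of Sparcl1 ran from 1539 CPM at P2 (1667 CPM in the 5 unmarked wells) to 5585 CPM in P6 Pou4f3-DTR, where pool 1 (8 wells) had 2977 CPM and pool 2 (4 wells) 8732 CPM. Sparcl1 was 2269 and 2037 CPM in the transgenic P4 groups against 4051 CPM in P4 wildtype. The 3 lowest groups were those of pool 3, so their difference from the other groups cannot be told apart from the pool.

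Genes outside the rule gave the unmarked members an epithelial, matrix-secreting profile. Otog was at 10 CPM in 98.6% of these wells (exact binomial interval 95.2 to 99.8), Ush1c and Epcam in 97.97% each and Sox9, a transcription factor of supporting cells, in 97.3%. The matrix genes Otoa (otoancorin), Tecta (alpha-tectorin) and Otogl were in 91.9%, 88.5% and 75.7%. Gjb2, which encodes connexin 26, was in 86.5% and Agr3 in 91.9%. This profile was not particular to the members. In Tectb-positive wells Otog and Sox9 were in 97.6% each and Tecta in 95.2%. In unmarked other non-hair wells Epcam was in 96.2%, Tecta in 83.6% and Otog in 81.2%. Ush1c (59.6%), Otoa (54.7%) and Gjb2 (24.7%) were in fewer of those wells. Among Notch genes, the receptor Notch1 was in 89.9% of the unmarked members, the ligand Jag1 in 83.1%, and the effector genes Heyl, Hey1 and Hes1 in 62.8%, 51.4% and 49.3%. Sox2, a transcription factor of the sensory lineage, was found in 29.1% (43 wells, 21.9 to 37.1), and Lfng, which modifies Notch receptors, in 28.4%. The Wnt-related receptors Lgr6 and Lgr5 were in 51 and 27 wells. The proliferation gene Mki67 was at 10 CPM in 5 wells and Top2a in 3. Counts for a gene near 10 CPM depend on depth and on dropout, so a missing read is not absence.

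**Figure D3:**
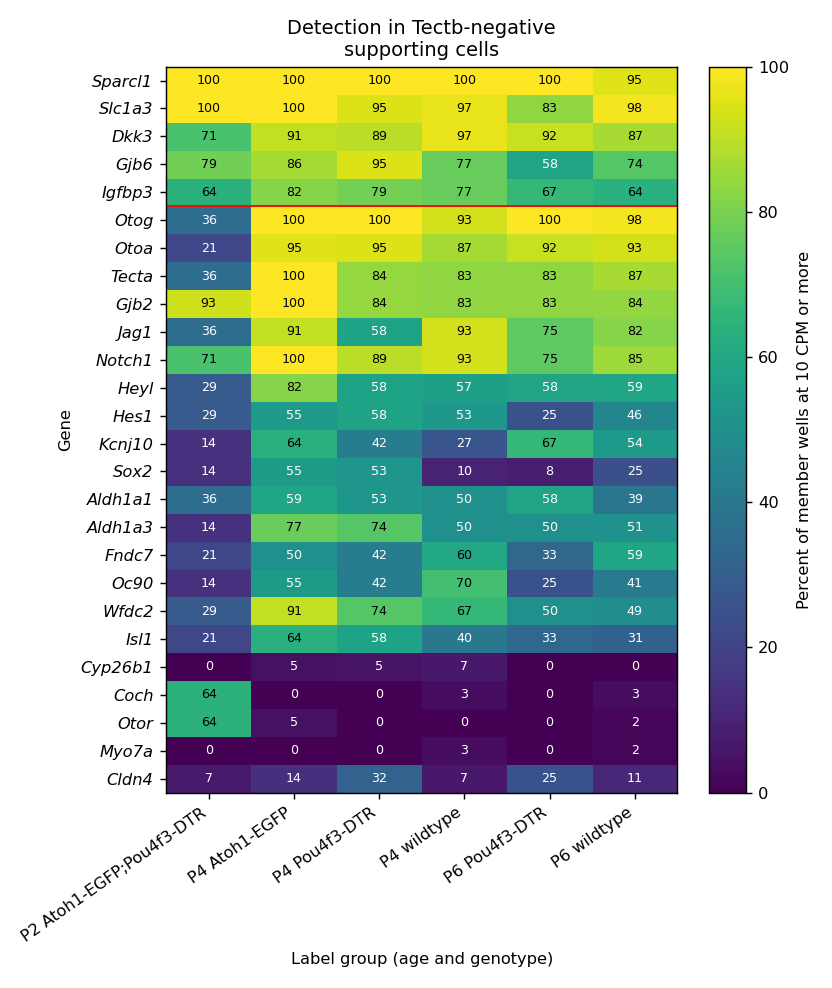
Percent of Tectb-negative supporting cell wells (colour and printed whole percent) in which each gene (rows) reached 10 CPM, by label group (columns). The 5 genes above the red line belong to the rule. The P2 column, with 9 mesenchyme-marked wells of 14, shows low Otog and Jag1 and high Coch and Otor.

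Otog differed in level between groups that also differ in pool. Its summed CPM in wildtype members was 6941 at P4 and 8815 at P6, and in Pou4f3-DTR members 1984 at P4 and 8473 at P6. It was 2404 in P4 Atoh1-EGFP and 809 at P2, or 2328 in the 5 unmarked P2 wells. The 3 groups of pool 3 were lowest, and all maxima pools of P4 and P6 lay above them, between 5179 CPM in pool 1 and 11756 CPM in pool 5 of P6 wildtype. Jag1 had 54.7 to 174.1 CPM in the groups of pool 3 and 344.4 to 396.7 CPM in the other 3, but the pools overlapped: pool 5 of P6 wildtype had 142.3 CPM and pool 6 195.02 CPM, and the 5 unmarked P2 wells had 223.7 CPM. In both transgenic P4 groups every well had Otog at 10 CPM, 22 of 22 and 19 of 19.

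To ask how supporting cells with and without Tectb differ, the wells of each class were summed within each label group and compared with edgeR's quasi-likelihood test, with the label group as a block and Benjamini-Hochberg adjustment over all genes tested other than the 12 of the rule. P4 Atoh1-EGFP had no Tectb-positive well, and a minimum of 3 wells per class left 5 groups. The minimum of 5 wells asked for in the design left too few groups for a test. Of 9536 genes tested, 6 were higher in Tectb-negative cells at an adjusted p of 0.05 (0.0629% of genes) and 0 were lower (0%). At an unadjusted p under 0.05 the same edgeR test gave 578 higher and 28 lower, and DESeq2 called 645 and 24 after adjustment. The 6 were Aldh1a1, Fndc7, Igfbp4, Apoe, Sparc and Itih5, each higher in all 5 groups. The Tectb-positive sums rest on 3, 4, 7, 3 and 25 wells: 68.6% of the genes had 0 reads in at least 1 of them, against 25.1% in the Tectb-negative sums, and the median log2 fold change of all genes tested was 1.05. With DESeq2's size factors in the same edgeR fit that median was 0.86. None of the 6 changed direction, but each was already higher in all 5 groups.

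Aldh1a1 (19:20492715-20643465, GRCm38) encodes a retinaldehyde dehydrogenase that makes retinoic acid, and it also counts among the transitional markers here. Its summed level in Tectb-negative wildtype cells was 283.2 CPM at P4 and 322.7 CPM at P6, in Pou4f3-DTR cells 154.6 CPM at P4 and 681 CPM at P6, and at P2 283.5 CPM. In Tectb-positive cells it was 4.41 CPM in P6 wildtype and 0 in the other 4 groups, so that no values overlapped (edgeR's quasi-likelihood test, Benjamini-Hochberg adjusted p = 0.00779). By wells it was at 10 CPM in 48.6% of unmarked Tectb-negative cells (72 wells, 40.4 to 56.99), 2 of 42 Tectb-positive cells (4.76%, 0.58 to 16.2) and 3.81% of hair wells. The share in Tectb-positive cells thus lay near that in hair wells, at median depths of 502090 and 523049 reads. Without the P2 group the edgeR adjusted p was 0.0572, and without either DTR group at P4 or P6 it was 0.0795.

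Fndc7 (3:108853678-108890008), which encodes a protein with fibronectin type III domains, had 91.2, 84.4, 822, 191.96 and 630 CPM in Tectb-negative cells of the P2, P4 Pou4f3-DTR, P4 wildtype, P6 Pou4f3-DTR and P6 wildtype groups, and 0, 0, 0, 0 and 26.7 CPM in Tectb-positive cells (edgeR adjusted p = 0.0377, Benjamini-Hochberg). The values did not overlap. It was in 54.1% of unmarked Tectb-negative and 1 of 42 Tectb-positive wells. Its call was lost when any group but P6 wildtype was left out (edgeR adjusted p 0.0841 to 0.275), and with DESeq2's size factors (0.057).

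Sparc (11:55394500-55423183), an abundant matricellular glycoprotein related to Sparcl1, was detected in every well of both classes. In that order of groups, Tectb-negative cells had 5366, 5520, 2985, 2694 and 2980 CPM and Tectb-positive cells 2159, 1536, 1556, 861 and 1195 CPM. Every Tectb-negative sum was above every Tectb-positive one (log2 fold change 1.60, SE 0.21, edgeR adjusted p = 0.00779, Benjamini-Hochberg). This is to be read against the median of 1.05 over all genes in that fit. Without P4 Pou4f3-DTR the adjusted p was 0.0965, and without P6 Pou4f3-DTR 0.0835.

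The calls of Apoe and Igfbp4 were lost without the mesenchyme-marked wells, and that of Itih5 without the P2 group. Apoe (7:19696109-19699188), which encodes a lipid carrier, had 3386, 591, 1232, 757 and 680 CPM in Tectb-negative cells and 66.2, 68.2, 44.9, 92.2 and 33.3 CPM in Tectb-positive cells (log2 fold change 4.36, SE 0.45, edgeR adjusted p = 0.00138, Benjamini-Hochberg). Without the 10 wells its log2 fold change was 3.31 and the adjusted p 0.124. Igfbp4 (11:99041244-99054392), another binding protein of insulin-like growth factors, had 1035, 301.1, 303.9, 198.9 and 228.02 CPM against 94.5, 0, 0, 0 and 0.51 CPM (edgeR adjusted p = 0.0216), and an adjusted p of 0.342 without the 10 wells. Leaving out P4 Pou4f3-DTR, P6 Pou4f3-DTR or P6 wildtype also ended the call of Igfbp4 (0.208, 0.171 and 0.059). Itih5 (2:10153571-10256529), a component of the hyaluronan matrix, had 653, 29.5, 47.8, 132.05 and 128.2 CPM against at most 0.07 CPM (edgeR adjusted p = 0.00138), and 0.254 without P2. It was at 10 CPM in only 24 members, of which 15 were unmarked, and has no value in the fit without the marked wells. With the mesenchyme-marked wells left out, 2 genes were called higher (0.0216% of 9261), which were Aldh1a1 and Sparc, and 0 lower (0%). Fndc7 was not called in that fit (adjusted p = 0.0655).

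**Figure D4:**
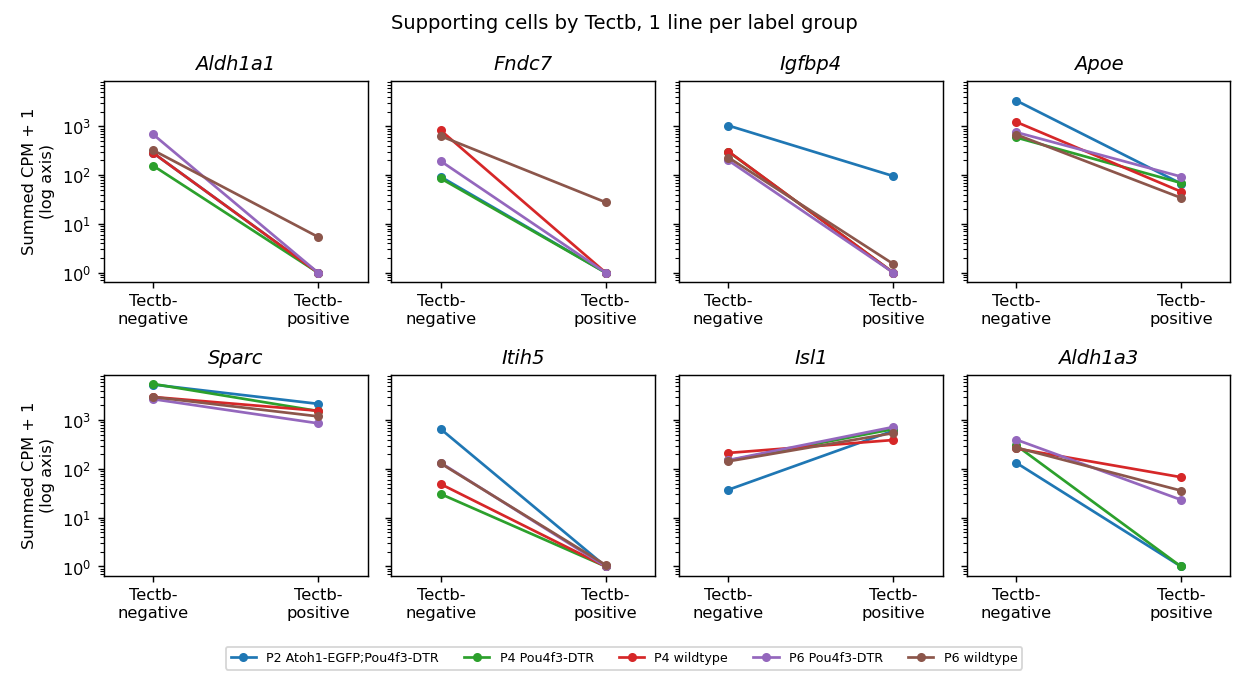
Summed CPM + 1 (log axis) of 8 genes in Tectb-negative and Tectb-positive supporting cells, with 1 line per label group (5 groups). The 6 called genes fall from left to right in every group; Isl1 runs the other way and Aldh1a3 falls in every group, and neither was called.

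Some genes known for regional expression are given here with their values, although none passed the test, and of the 18 inner ear transcription factors tested 0 were called. Isl1, a LIM homeodomain transcription factor, had 36.5, 148.1, 211.9, 150.9 and 142.4 CPM in Tectb-negative and 607, 656, 390.9, 723 and 542 CPM in Tectb-positive cells. The groups did not overlap, with a log2 fold change of -2.05 (SE 0.47) and an edgeR adjusted p of 0.415 (unadjusted 0.000827). By wells Isl1 was in 42.6% of unmarked members and 36 of 42 Tectb-positive cells. Cyp26b1, which degrades retinoic acid and is known from the striola, had at most 8.01 CPM in Tectb-negative cells and 6.30, 30.5, 45.7, 17.1 and 85.4 CPM in Tectb-positive cells (edgeR adjusted p = 0.755), so that the values overlapped. It was in 4 unmarked members (2.70%, 0.74 to 6.78) and 20 of 42 Tectb-positive wells (47.6%, 32 to 63.6). Aldh1a3, a second retinaldehyde dehydrogenase, had 133.02, 304.1, 261.6, 398.2 and 273.6 CPM against 0, 0, 66.8, 22.3 and 34.9 CPM (edgeR adjusted p = 0.531), and was in 57.4% of unmarked members and 6 of 42 Tectb-positive wells. Oc90, a major otoconial protein, was in 47.97% of unmarked members and 1 of 42 Tectb-positive wells (edgeR adjusted p = 0.152). Of the retinoic acid list, 1 of 11 genes tested was higher, Aldh1a1, with a list median log2 fold change of 4.87. The matrix and otolith list had 1 of 8, Sparc, with a median of 0.58, and the insulin-like growth factor list 1 of 8, Igfbp4, with a median of 0.75. The transitional markers had 1 of 3, again Aldh1a1, with a median of 4.02. The roof and non-sensory markers, which include Oc90, had 0 of 3, with a median of 8.94. These stand beside 0.0629% of all genes called higher and the median of 1.05 over all genes tested. The list medians include folds fitted against Tectb-positive sums at 0, so they depend on the prior count and give no size. Without the mesenchyme-marked wells the insulin-like growth factor list had 0 called, the roof and non-sensory markers still 0, and the other lists still 1 each.

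Shares of wells with other supporting cell genes are given without a test. In unmarked members and the 42 Tectb-positive wells, Otog was in 98.6% and 97.6%, Otoa in 91.9% and 95.2%, Gjb2 in 86.5% and 85.7%, Jag1 in 83.1% and 85.7%, and Hey1 in 51.4% and 52.4%. None of 17 Notch genes, 20 Wnt genes or 22 adhesion and tight junction genes tested was called in either direction. Of 12 supporting cell markers outside the rule 0 were called, with a median log2 fold change of 0.58. Notch1 was in 89.9% and 76.2% of wells, Kcnj10 in 49.3% and 35.7%, and Lfng in 28.4% and 16.7%. Heyl was in 62.8% and 38.1% of wells and Sox2 in 29.1% and 9.52%, with exact intervals of 21.9 to 37.1 and 2.66 to 22.6 for Sox2. All these shares pool label groups, whose mix differed between the classes, with 0 Tectb-positive wells in P4 Atoh1-EGFP. In unmarked members Sox2 was in 2 of 5 wells at P2, 12 of 22 in P4 Atoh1-EGFP and 10 of 19 in P4 Pou4f3-DTR. It was in 3 of 30 in P4 wildtype, 1 of 12 in P6 Pou4f3-DTR and 15 of 60 in P6 wildtype. A test that called so few genes does not show that the classes act alike in these.

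The unmarked members varied among themselves in Aldh1a1 and Isl1. Aldh1a1 without Isl1 was found in 49 wells, Isl1 without Aldh1a1 in 40, both in 23 and neither in 36. All 4 combinations occurred in every label group. Oc90 was in 46 of the 72 wells with Aldh1a1 and in 25 of the 76 without it, Fndc7 in 53 and 27, and Wfdc2, a secreted protein of epithelia, in 60 and 34. Isl1 went the other way, in 23 of 72 and 40 of 76. Of these genes, Oc90 and Wfdc2 count here among the roof and non-sensory markers and Aldh1a1 among the transitional ones. These counts pool wells of all groups, share depth and library, and are descriptive.

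Unmarked members with fewer of the 5 rule genes also differed in other genes, by counts of wells and with no test. Heyl was in 9 of the 32 wells with 3 rule genes, 19 of the 31 with 4 and 65 of the 85 with 5. Cdh4, a classical cadherin, was in 9, 12 and 56, and Jag1 in 21, 24 and 78. Mmp2, a matrix metalloprotease given here as a transitional marker, was in 23, 18 and 30, Apoe in 23, 17 and 39, and Cldn4, a tight junction protein, in 12, 3 and 7. Otog was in 31, 31 and 84 wells. Unmarked wells at the limit of the rule thus carried Heyl in 28.1% and Mmp2 in 71.9%, against 76.5% and 35.3% of the wells with all 5 genes. These counts pool wells of all label groups, whose mix, sequencing pool and depth were not matched between the numbers of rule genes.

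The members were also compared with the other non-hair wells in all 6 label groups by the same edgeR test. The other non-hair wells are a mixture, of which 96.2% had Epcam, 81.9% Oc90 and 86.4% Cldn4 once mesenchyme-marked wells were set aside. Of 12282 genes, 93 were higher in the members (0.757%) and 70 lower (0.57%) at an adjusted p of 0.05, all in the same direction in every group. Without the mesenchyme-marked wells 1.29% of 12138 genes were higher and 0.741% lower, with 88 and 56 of the calls shared. Because both classes were cut from the same wells by 5 genes, a gene that varies with those 5 across wells had to differ in the same direction. The calls depended on single groups: without P4 Atoh1-EGFP 0.0568% of genes were higher and 0.0406% lower, without P4 Pou4f3-DTR 0.128% and 0.0722%, without P4 wildtype 0.109% and 0.0752%, and without P6 wildtype 0.102% and 0.0931%. Without P2 the shares were 1.25% and 0.773%, and without P6 Pou4f3-DTR 0.62% and 0.35%. Per well, the members had a median mitochondrial share 0.58 percentage points higher than the other non-hair wells (SD 0.41, higher in 6 of 6 groups, exact sign-flip permutation p = 0.03125, the smallest it can give, 0.09375 adjusted over 3 quantities). By group means the difference was 0.35 points (SD 0.57, higher in 4 of 6 groups, exact sign-flip permutation p = 0.1875, 0.28125 adjusted). Its part in the result was not tested.

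Of 12 supporting cell markers outside the rule, 3 were higher and 0 lower (Otog, Gjb2 and Lfng), with a median log2 fold change of 2.97 against -0.26 over all genes tested. Without the mesenchyme-marked wells 6 were higher, with Hey1, Jag1 and Sox9 added. Otog had 809 to 8815 CPM in the members (median 4673) and 265.7 to 1476 CPM in the other non-hair wells (median 778). The lowest member group, P2, overlapped them (2328 CPM in its 5 unmarked wells), and every group was higher within itself (log2 fold change 2.44, SE 0.24, edgeR adjusted p = 0.00542, Benjamini-Hochberg). Otoa rose likewise, from 41.5 to 486 CPM in the other wells to 88.3 to 1383 CPM in the members (log2 fold change 1.65, edgeR adjusted p = 0.015). Tecta had a log2 fold change of -1.07 and did not pass (edgeR adjusted p = 0.115), but was lower without the mesenchyme-marked wells (adjusted p = 0.0227). Zpld1, a zona pellucida domain protein, was lower: it had 0 to 2.85 CPM in the members and 214.5 to 1776 CPM in the other non-hair wells (edgeR adjusted p = 0.0108), and was in 1 unmarked member and 13.9% of unmarked other wells. The matrix list thus held 2 higher and 1 lower of 9 tested, with a median log2 fold change of 0.41 against -0.26 over all genes tested and 0.757% called higher, and 2 higher and 2 lower without the mesenchyme-marked wells.

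Genes of the Notch pathway were among those higher in the members. Heyl had 75.96 to 276.1 CPM (median 172.5) in the members and 0 to 5.92 CPM in the other non-hair wells (edgeR adjusted p = 0.00751), without overlap, and Heyl stayed called whichever group was left out (adjusted p 0.00929 to 0.044). With maxima wells alone Heyl was not called (edgeR adjusted p = 0.128). Lfng had 7.84 to 59.04 CPM against 0 to 0.38 CPM (edgeR adjusted p = 0.015). By wells Heyl was in 62.8% of unmarked members and 3 other non-hair wells, but also in 41.1% of hair wells. Jag1 had 54.7 to 396.7 CPM against 1.87 to 59.9 CPM, with overlap in P4 Pou4f3-DTR only, and an edgeR adjusted p of 0.0756, or 0.0256 without the mesenchyme-marked wells. For Hey1 the edgeR adjusted p was 0.112, or 0.0265 without those wells. Hes1 had a log2 fold change of 4.24 and did not pass (0.127). In all 2 of 16 Notch genes tested were higher and 0 lower, with a median log2 fold change of 1.52, beside 0.757% and -0.26 for all genes tested, and 4 were higher without the mesenchyme-marked wells.

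Channels, receptors and transcription factors followed. Gjb2 had 164.2 to 474 CPM in the members and 2.92 to 92.7 CPM in the other non-hair wells, without overlap (log2 fold change 3.50, SE 0.42, edgeR adjusted p = 0.0104). Slitrk6, a transmembrane protein known from inner ear innervation, had 153.6 to 761 CPM against 13.6 to 78.5 CPM (log2 fold change 3.94, SE 0.53, edgeR adjusted p = 0.0143). Isl1 had 36.5 to 225.2 CPM against 1.90 to 50.2 CPM, overlapping at P2 only (log2 fold change 3.89, SE 0.54, edgeR adjusted p = 0.015). It was thus higher in the members than in the other non-hair wells. The Tectb-positive sums of Isl1 were higher still, but that difference was not called. Isl1 was the 1 gene called of 25 inner ear transcription factors tested, whose median log2 fold change was -0.42, beside 0.757% and -0.26 for all genes. Without the mesenchyme-marked wells Sox9 was called too. Lgr4, a receptor of R-spondins that raises Wnt signalling, had 190.7 to 440 CPM against 35.5 to 151.9 CPM (log2 fold change 2.0, SE 0.26, edgeR adjusted p = 0.0135), the 1 called of 28 Wnt genes (median 0.11). Without those wells 3 Wnt genes were higher, Lgr4, Lgr5 and Wnt7a, beside 1.29% of all genes. Tgfb2 (log2 fold change 2.77, edgeR adjusted p = 0.042) and Igfbp5 (1.39, 0.0174) were also higher.

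Ush1c and Myo6, which are best known from hair bundles, were higher in the members. Ush1c, which encodes harmonin, had 642 to 1736 CPM against 220 to 468 CPM (log2 fold change 2.14, edgeR adjusted p = 0.0135), and Myo6 180 to 250 CPM against 76.2 to 136.3 CPM (log2 fold change 1.10, adjusted p = 0.0282). Neither overlapped between the classes. They were the 2 genes called of 4 hair cell markers tested, and the hair cell genes of the rule were at 0 or 1 per well by choice. Of 28 matrix and basal lamina genes 3 were higher and 0 lower: Col9a2 (log2 fold change 0.81), Col11a2 (1.75) and Col11a1 (1.3), cartilage-type collagens that also occur in the inner ear, with edgeR adjusted p-values of 0.0272, 0.015 and 0.0488. The list's median was -0.39, beside -0.26 and 0.757% called higher for all genes. Col11a1 missed without the mesenchyme-marked wells (0.0696), and Thbs1, which encodes thrombospondin 1, was then called lower. Of 18 immediate early and heat shock genes, Fos (0.96, edgeR adjusted p = 0.0143) and Dusp1 (1.09, adjusted p = 0.0195), both known to respond to handling of cells, were higher, with a list median of -0.06. Without the mesenchyme-marked wells Jun was higher too and Ier3 lower.

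A claudin and a keratin pair were among the lower genes. Cldn4 had 1.59 to 304.3 CPM in the members (median 94.6) and 677 to 3995 CPM in the other non-hair wells (median 1833), without overlap (log2 fold change -4.82, SE 0.78, edgeR adjusted p = 0.024). Krt18 and Krt8, a keratin pair of simple epithelia, had log2 fold changes of -1.99 and -1.40 (edgeR adjusted p = 0.0143 and 0.0403), and neither overlapped. Gpc3, a glypican, had 14.3 to 114.3 CPM against 351.98 to 1011 CPM (log2 fold change -4.26, SE 0.30, edgeR adjusted p = 0.00136), and stayed called whichever group was left out (adjusted p 0.00169 to 0.0126). With maxima wells alone Gpc3 was not called (edgeR adjusted p = 0.124). Cnmd, which encodes chondromodulin, had 12.4 to 286.3 CPM against 2249 to 5159 CPM (log2 fold change -4.75, edgeR adjusted p = 0.0167). Dclk1, a microtubule-associated kinase, had 8.46 to 83.2 CPM against 408.8 to 680 CPM (-4.37, adjusted p = 0.00817). Sostdc1, a secreted modulator of BMP and Wnt signalling, had at most 0.05 CPM against 78.4 to 296.2 CPM (edgeR adjusted p = 0.000303). Abca13, a transitional marker here, had 3.17 to 114.5 CPM against 160.9 to 999.8 CPM (-3.72, adjusted p = 0.015). Of 4 transitional markers tested, 0 were higher and 2 lower, Abca13 and Zpld1, beside 0.57% of all genes lower. The list's median log2 fold change was -2.29 against -0.26 over all genes tested. Mmp2 and Aldh1a1, the other transitional markers, were not called, and Aldh1a1 is described below. Crabp2, which carries retinoic acid, and Dusp6, a target of FGF signalling, were lower by fits of -2.89 and -1.38 on the log2 scale (edgeR adjusted p = 0.0463 and 0.0196).

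**Figure D5:**
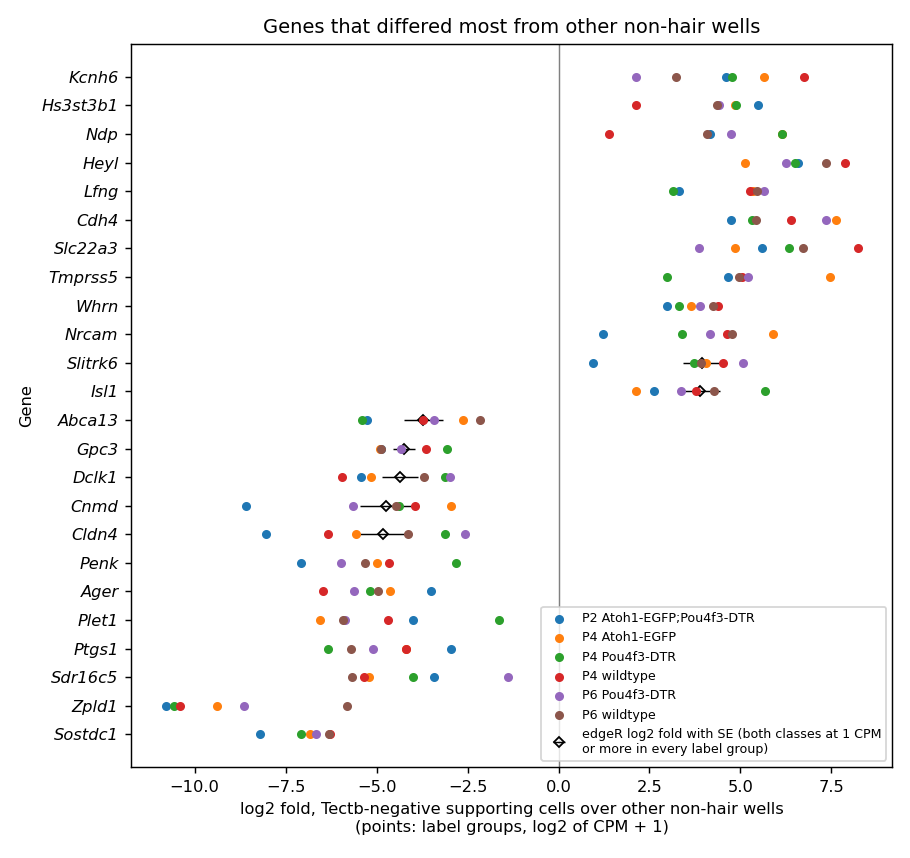
Log2 fold change of the 24 named genes in Tectb-negative supporting cells over other non-hair wells: coloured points are the 6 label groups on the log2 of CPM + 1, and open diamonds with bars are edgeR's log2 fold change with its SE, drawn where both classes had at least 1 CPM in every group. All points of a gene lie on the same side of 0, which the choice of named genes required.

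Aldh1a1, which differed between the members and the Tectb-positive cells, did not pass the test against the other non-hair wells. It had 154.6 to 681 CPM in the members and 182.8 to 544 CPM in the other non-hair wells, overlapping throughout (log2 fold change -0.01, SE 0.29, edgeR adjusted p = 0.993), and was in 48.6% of unmarked members and 46.3% of unmarked other wells. Aldh1a3 was in 57.4% and 68.3% (log2 fold change -1.03, adjusted p = 0.182). Igfbp4 was in 38.5% and 77.7% and was lower in the members without the mesenchyme-marked wells (edgeR adjusted p = 0.0219, or 0.389 with them). Apoe was in 53.4% of unmarked members against 94.8% of unmarked other wells and 9 of 42 Tectb-positive wells, so its share in the members lay between those of the other classes. Of 20 cell cycle genes tested, 0 were called by edgeR, with a median log2 fold change of -1.25 against -0.26 over all genes tested. Without the mesenchyme-marked wells 1 was lower, Ccnd3, which encodes cyclin D3 (0.741% of all genes), and the median was -1.996 against -0.36.

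Between label groups the members could be compared only as 1 sum each, so no test was made. A gene counted as higher or lower from 2-fold, if the higher group had at least 50 CPM in its sum and any read in at least 25% of its wells. In P6 Pou4f3-DTR against P6 wildtype, with 12 and 61 wells, 617 of 3752 genes were higher (16.4%) and 800 lower (21.3%). Of 10 supporting cell markers measured, 1 was higher, the potassium channel gene Kcnj10 (275.3 and 128.8 CPM), and 1 lower, Otogl (218.8 and 475 CPM). Within pool 1, which holds both genotypes, both were under 2-fold, with Kcnj10 at 201.1 and 118.8 CPM and Otogl at 320.1 and 392.3 CPM. Otog (8473 and 8815 CPM), Gjb2 (445 and 433 CPM) and Jag1 (380 and 344.4 CPM) differed by less than 2-fold. Notch genes had 1 higher and 3 lower of 9 measured. The higher 1 was Hey2 (149.3 and 32.4 CPM), whose pools overlapped: the DTR pools had 26.9 CPM (8 wells) and 296.9 CPM (4 wells) and the wildtype pools 0.92 to 83.8 CPM. Among the lower was Heyl (75.96 and 257.7 CPM), though it was at 10 CPM in 7 of 12 and 36 of 61 wells, 58.3% and 59.02%. Heyl was 55.5 and 100.7 CPM in the DTR pools and 195.9 to 271.8 CPM in the wildtype pools, so the pools did not overlap. Aldh1a1 was 681 CPM (710 and 647 by pool) against 322.7 CPM (107.8 to 587 by pool), also without overlap, and Dhrs3, a retinaldehyde reductase, 353.4 against 72.7 CPM.

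In the same comparison Wnt genes had 0 higher and 6 lower of 13, where 16.4% of all genes were higher and 21.3% lower. Their median log2 fold change was -0.58, or -0.48 within pool 1, against -0.04 over all 3752 genes in all pools. No median over all genes was taken within pool 1, so the list medians of pool 1 have no such reference. Among the 6 lower were Wnt7a (14.7 and 141.2 CPM) and Fzd6 (36.4 and 90.5 CPM). Planar cell polarity genes had 0 higher and 4 lower of 9, with a median of -0.87, or -0.75 within pool 1. Vangl2, a core gene of planar polarity, had no read in the 12 DTR wells and 132.97 CPM in wildtype, with reads at 10 CPM in 24 of 61 wells. It was 0 in both DTR pools and 83.3 to 150.8 CPM in the wildtype pools. Other large differences were of the same kind: Ythdf2, Fto and Insig1 were at 10 CPM in 0 of 12 DTR wells and in 31, 25 and 25 of 61 wildtype wells, while Arl5a, Polk and Pex26 were each in 3 of 12. With 12 wells, a gene in few cells can be missed or set by 1 well. Immediate early and heat shock genes had 0 higher and 5 lower of 13 (median -0.90), but their median within pool 1 was 0.37. Leaving out the marked P6 wildtype well moved 2 genes of the lists across 2-fold: Notch2 no longer reached it (log2 fold change -1.44 with the well and -0.97 without) and Nr4a1 did (-0.976 and -1.005).

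From P4 to P6 wildtype, in which pool 7 and pools 1, 4, 5 and 6 cannot be told apart from age, 8.51% of 3668 genes were at least 2-fold higher and 10.7% at least 2-fold lower. Kcnj16, an inward rectifier potassium channel, was 75.3 CPM at P4 and 168.2 to 296.6 CPM in the 4 P6 pools, and at 10 CPM in 23.3% of P4 wells against 53.8% to 64.3% by P6 pool. Kcnj10, which encodes its partner subunit, was 81.8 and 128.8 CPM, below 2-fold. Oc90 was 4970 CPM at P4 and 491 CPM at P6, in 21 of 30 and 25 of 61 wells. The highest P4 well had 37673 CPM of Oc90, and the P6 pools were at most 628 CPM. Of 7 retinoic acid genes 0 were higher and 3 lower at P6: Dhrs3 (422 to 72.7 CPM), the retinol receptor Stra6 (121.96 to 25.3 CPM) and the retinoic acid receptor Rarb (81.2 to 28.4 CPM). Wnt genes had 4 higher and 1 lower of 13, with Wnt7a at 52.01 and 141.2 CPM, Sfrp2, which binds Wnt proteins, at 19.3 and 83.6 CPM, and Lgr6 at 67.5 and 160.6 CPM. By P6 pool Wnt7a was 60.2 to 192.6 CPM and Sfrp2 28.9 to 226.3 CPM, above the P4 values. Lgr6 was 54.02 to 192.2 CPM by P6 pool, which overlapped its P4 value. Otog (6941 and 8815 CPM) and Heyl (276.1 and 257.7 CPM) stayed within 2-fold, and 0 of 10 supporting cell markers passed it in either direction. Nectin3, an adhesion molecule, was 9.63 CPM at P4 and 104.5 CPM at P6, in 2 of 30 and 20 of 61 wells.

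At P4 the Pou4f3-DTR and Atoh1-EGFP members shared pool 3 and the smartscribe enzyme. Of 3193 genes, Pou4f3-DTR had 11.9% higher and 10.8% lower. Notch genes had 0 higher and 4 lower of 8, with a median log2 fold change of -1.03 against -0.03 over all genes. Jag1 was 54.7 and 174.1 CPM, in 11 of 19 and 20 of 22 wells, and Heyl 88.8 and 240 CPM, in 11 and 18 wells. Hey1 was 91.6 and 270 CPM and Hes5 19.3 and 56.4 CPM. Of 10 supporting cell markers measured, 0 were higher and 3 lower, Jag1, Hey1 and Kcnj10 (23.03 and 56.9 CPM), while Otog (1984 and 2404 CPM) and Gjb2 (164.2 and 284.4 CPM) stayed within 2-fold. Lgr5 was higher, at 122.9 against 44.02 CPM, although it was in 7 of 19 and 8 of 22 wells. Adamts1, a matrix protease, was 151.2 CPM and without a read in Atoh1-EGFP, in 5 of 19 and 0 of 22 wells, and Mmp2 was 242.1 and 77.6 CPM. Genotype is the difference the labels give, and with 1 sum per genotype the spread between animals is not known.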

How the data were processed

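The deposited table, made by the authors, holds expected counts per gene and well from RSEM 1.3.0 with STAR 2.5.3a on mm10, per the submitters' processing notes; 84.6% of nonzero values were whole numbers to the last digit, and every value was rounded. The annotation, and whether strand was used, is not given in the sources used here, so genes with overlapping, antisense or near-identical partners are uncertain. CPM was taken over 52636 genes, without the 94 spike-in and transgene entries. Symbols are the table's own, and 52403 gene identifiers matched GENCODE M21, which gave the coordinates. No wells had identical counts, wells share no barcodes, and no doublet caller was run. Because reads carry no molecular identifiers, intervals (exact Poisson for sums, exact binomial for shares) cover counting error only.

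The members and gene lists were chosen with earlier results of these data known. Counts were summed by class and label group and tested with edgeR 4.0.16 (glmQLFTest, TMM, filterByExpr, label group as block) in R 4.3.3, leaving the 12 rule genes out of the adjustment. At least 5 wells per class and group were asked for. The Tectb-positive class met this in only 2 groups, which allows no test as designed, so a minimum of 3 wells is reported for it. Named genes were those with the largest fold, up to 12 in each direction, among genes called with at least 20 CPM and the same direction in every group, besides called and selected list members. Between conditions they were the 8 largest each way. A fold change fitted against a class with groups at 0 depends on the prior count and is not printed for single genes. Medians over lists and over all genes include such folds. Groups under 3 counts were set to 3 counts for folds between conditions. Alternatives used DESeq2 1.42.0, limma 3.58.1 and other filters, samples and thinning to 80000 reads per well. The edgeR code was tested on simulated data. Failed wells, 141 in number, were left out. Genes of the transgenes were read only as the table's own entries.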

Additional observations from a re-analysis of the deposited data

Results flagged for a closer look

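Of 35 sets of values examined, 3 held a value far from the others by Dixon's test. The sets were fold changes of named genes, shares of members, and medians of reads, detected genes and mitochondrial share. Chance alone marks about 1 in 20 such sets. All 3 were fold changes in 1 label group, on the log2 of CPM + 1. Igfbp4, Tectb-negative over Tectb-positive cells, was 3.44 at P2 against 7.25 to 8.25 in the other 4 groups, beside 94.5 CPM in the 3 Tectb-positive P2 wells. Slitrk6, Tectb-negative over other non-hair wells, was 0.96 at P2 against 3.73 to 5.07 in the other 5, and 9 of the 14 P2 members were mesenchyme-marked. Hs3st3b1, a heparan sulphate sulfotransferase gene, was 2.13 in P4 wildtype against 4.35 to 5.47 in the other 5 groups.

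Among the wells labelled failed, which no comparison used, 11 met the rule for Tectb-negative supporting cells: 7 at P2, 1 in P4 Pou4f3-DTR, 1 in P4 wildtype and 2 in P6 wildtype. They held 1234 to 332571 reads (median 30506) and 556 to 3312 detected genes, and 9 had at least 1000 genes. Otog was at 10 CPM in 7 of them, and 4 carried at least 3 mesenchyme markers.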

How the results depend on the processing

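Every setting named here kept the direction of the named genes: of 100 values for the 6 genes of the Tectb comparison 67 stayed called, 33 did not and 0 reversed, and of 475 for the 24 genes against other non-hair wells 72% stayed called, 28% did not and 0 reversed. That 0 reversed was largely set in advance, since genes were named only if called with the same direction in every label group. The number of calls moved much more, and the cause was not tested. In the Tectb comparison (6 higher, 0 lower), DESeq2 gave 645 and 24, no filter on low counts 48 and 3, label group by pool by enzyme as the sample 13 higher, thinned wells 10 and 1, maxima wells alone, with 3 groups left, 0 higher, wells with 0 hair cell genes 1 higher, and, chosen after seeing the data, mesenchyme-marked wells left out 2 higher. Leaving out 1 label group gave 2 to 6 higher and 0 to 0 lower, with 2 both without P4 Pou4f3-DTR and without P6 Pou4f3-DTR. Against other non-hair wells (0.757% of genes higher, 0.57% lower), DESeq2 gave 4.6% and 7.24%, limma on mean CPM 2.19% and 2.71%, thinned wells 1.60% and 1.20%, no filter on low counts, with more genes tested, 0.421% and 0.342%, maxima wells alone 0% and 0%, wells with 0 hair cell genes 0.541% and 0.388%, label group by pool by enzyme 1.26% lower, and mesenchyme-marked wells left out 1.29% higher. Leaving out 1 label group gave 0.0568% to 1.25% higher and 0.0406% to 0.773% lower.

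The block was the label group, since the labels carry no replicate number or animal. Without the block the same edgeR fits called 4 higher and 0 lower in the Tectb comparison and 0.635% and 0.407% of genes against other non-hair wells; Fndc7, Igfbp4 and Sparc lost their call, as did 7 of the 24 genes named against other non-hair wells.

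The share of members among passed wells was 25.3% with at least 2 of the 5 genes, 14.1% with at least 4 and 14.9% with 0 hair cell genes. Detected genes per well, members minus other non-hair wells, were 138.3 by group medians and -128 by group means. Between conditions a filter at 10 CPM and 10% of wells gave 1248 and 2649 genes higher and lower for P6 Pou4f3-DTR, 1237 and 1538 for P6 over P4 wildtype, and 1672 and 1510 for P4 Pou4f3-DTR; pool 1 alone gave 1053 higher at P6. A minimum of 10 wells left too few groups for the Tectb comparison and was not run. Depth limits genes near 10 CPM and the sums of 3 or 4 wells.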
